A study of Mus musculus with 11 samples.

Results

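The genes described here encode the enzymes and regulators of cholesterol and fatty acid synthesis: the mevalonate arm, the sterol arm, the SREBP control system, fatty acid synthesis, and a small group that carries cholesterol inside or out of the cell. The list held 33 gene symbols. A gene was measured where a probe set was annotated with its symbol alone, and the brightest such probe set over the 9 gland arrays stood for it. This gave 28 genes, of 17097 genes measured on the arrays. Acat2, Pmvk, Srebf1, Scd2 and Abca1 had no such probe set in the annotation used here and were not analysed here.

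The study profiled T cells that infiltrate the lacrimal gland (LG), the tear gland, of NOD mice, a strain that develops a disease resembling Sjögren's syndrome. All groups came from male NOD mice 16 weeks old, with no treatment or engineered allele in the labels. LG_naive was sorted as CD4+ TCRb+ cells without PD1 and ICOS, LG_eTconv (effector conventional) and LG_eTreg (effector regulatory) as CD4+ TCRb+ cells high in both, with 3 arrays each. The design text gives the same gate, low in CD73 and CD200, for both effector groups, so it does not state what separated them. Spl_CD4 and Spl_CD8 are total CD4+ and CD8+ T cells from spleens of the same mice, with 1 array each. Values are log2 signals, so a difference of 1 is a 2-fold difference. Levels of different genes cannot be compared, because probe sets differ in brightness.

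Cholesterol is built from acetyl-CoA through mevalonate and isoprenoids to squalene, which is closed into a ring and trimmed to cholesterol. The transcription factor SREBP2, escorted by SCAP and held back by INSIG proteins when sterols are plentiful, switches these genes on together, while LXR receptors turn on cholesterol export. T cells raise the pathway when they are activated and divide, and its isoprenoid side branch supplies the lipid anchors of many membrane proteins.

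Across the gland groups, 7 of the 28 genes, 25%, were called in at least 1 of the 3 comparisons, beside 18.2% of all genes. Idi1 and Sqle were lower in LG_eTconv than in both other gland groups, Mvk was lower in both effector groups than in LG_naive, Scap was lower in LG_eTconv than in LG_naive, and Fdft1 and Ebp were higher in LG_eTreg than in LG_naive. Stard4, a carrier that moves sterols between membranes, was higher in both effector groups than in LG_naive. Apart from those of Stard4, and of Idi1 between the effector groups, each call was lost without at least 1 single array. The Mvk calls rest on 1 of its 2 probe sets. Called here means an adjusted p under 0.05 in limma's moderated test over the 9 gland arrays, with Benjamini-Hochberg adjustment over all 17097 genes, two-sided. The labels do not say that arrays of a group came from separate mice, so a p-value here measures no more than the spread among the samples at hand, and that spread may be technical.

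The signal of each array was set against its own background limit, the brightest of its control probe sets for nonspecific binding, which ran from 0.94 to 1.70. Between 55.5% and 65.6% of genes were above it. The 18S RNA control was 6.63 on LG_naive 1 and 6.69 on LG_eTreg 3, against 4.34 to 5.68 on the other arrays. The gap between 3′ and 5′ actin probe sets was 3.35 on LG_eTconv 1, against 1.53 to 2.86 elsewhere. These 3 arrays stand apart from the rest, and calls of the 28 genes that are lost or gained without them are given with and without. The pathway and marker lists were not rerun without them. Foxp3, the regulatory T cell factor, averaged 8.18 in LG_eTreg, 4.24 in LG_eTconv and 3.95 in LG_naive, and Cd4 was 8.35 or higher on every gland array and 2.47 on Spl_CD8, as the labels have it. Of 5 regulatory T cell markers, 3 were called higher in LG_eTconv than in LG_naive and 5 in LG_eTreg, beside 6.45% and 6.2% of all genes. Between the effector groups 3 were called higher in LG_eTreg, beside 2.94%. Ctla4 (9.97 in LG_eTconv, 10.26 in LG_eTreg) and Ikzf2 (8.26 and 9.28) were not called there. All 28 genes were above the limit on at least 1 gland array. Lss was above it on 1 of the 9, and Hmgcs1 and Fdps on 6 each.

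Promoters of 22 of the 28 genes were found in the set of RefSeq promoters (GRCm38.p6) used here, as 27 windows of 250 bases before an annotated start. Sqle, Fdft1, Fdps, Scd1, Stard4 and Abcg1 had no entry in that set. Idi1, Mvk and Ebp are printed as called genes with 1 window each, and Hmgcs1 because it alone held a sterol regulatory element type motif. Scap, the other called gene with an entry, had 2 windows, neither of which held CCAAT, and is not printed. Capitals mark CCAAT on either strand, the letters bound by NF-Y, a partner of SREBP, and in Hmgcs1 also that motif. The windows are Idi1 at chr13:8885356-8885605 on the plus strand, Mvk at chr5:114444019-114444268 on the plus strand, Ebp at chrX:8193513-8193762 on the minus strand, and Hmgcs1 at chr13:119690101-119690350 on the plus strand, each read 5′ to 3′ and ending at the base before the start.
Idi1: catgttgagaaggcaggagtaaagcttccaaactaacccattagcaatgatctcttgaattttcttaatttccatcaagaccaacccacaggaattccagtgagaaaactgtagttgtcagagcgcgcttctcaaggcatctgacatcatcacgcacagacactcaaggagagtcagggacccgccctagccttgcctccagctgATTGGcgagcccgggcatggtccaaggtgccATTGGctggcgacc
Mvk: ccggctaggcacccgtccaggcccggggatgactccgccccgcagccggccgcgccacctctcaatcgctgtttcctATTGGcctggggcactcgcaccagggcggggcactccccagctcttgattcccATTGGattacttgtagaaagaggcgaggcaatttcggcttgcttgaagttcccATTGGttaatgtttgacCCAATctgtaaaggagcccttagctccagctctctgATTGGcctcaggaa
Ebp: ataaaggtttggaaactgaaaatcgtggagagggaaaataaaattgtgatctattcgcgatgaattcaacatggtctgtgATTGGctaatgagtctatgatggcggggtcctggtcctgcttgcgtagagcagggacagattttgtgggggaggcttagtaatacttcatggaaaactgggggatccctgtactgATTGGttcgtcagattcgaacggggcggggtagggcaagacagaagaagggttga
Hmgcs1: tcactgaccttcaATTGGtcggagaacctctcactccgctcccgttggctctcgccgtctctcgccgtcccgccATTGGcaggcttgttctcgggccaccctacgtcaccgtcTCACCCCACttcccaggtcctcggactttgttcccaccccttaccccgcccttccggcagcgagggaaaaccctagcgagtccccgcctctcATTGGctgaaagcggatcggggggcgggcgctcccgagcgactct

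CCAAT was present in 66.7% of the 27 member windows, against 34.9% of the windows of all genes measured on the arrays. The Mvk window held it 5 times, the Hmgcs1 window 3 times, and the Idi1 and Ebp windows 2 times each. GGGCGG, the Sp1 box, was in 74.1% of member windows, against 48.2%. The E-box CACGTG was in 22.2%, against 7.38%, and the motif TCACNCCAC was in 3.7%, 1 window, against 1.08%. Both strands were searched, these motifs can overlap each other, and a match is a description of letters only.

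The mevalonate arm, from acetyl-CoA to farnesyl diphosphate, had its lowest group means in LG_eTconv. For Mvk the LG_eTreg mean was only 0.04 higher. The lowest gland array was LG_naive 1 for Hmgcs1 and LG_eTreg 2 for Mvd. Of the arm's 5 measured genes, 2 were lower in LG_eTconv than in LG_naive, Mvk and Idi1, and none was called higher. Over all 28 members, 5 were called in this comparison, 17.9%, beside 13.5% of all genes; 4 were lower and 1 higher, beside 7.02% and 6.45% of all genes. The Mvk probe set, for mevalonate kinase, read 3.77, 3.14 and 3.44 in LG_naive, 2.74, 2.07 and 2.47 in LG_eTconv, 2.56, 2.18 and 2.66 in LG_eTreg, 2.73 in Spl_CD4 and 2.86 in Spl_CD8. All 6 effector arrays lay below all 3 LG_naive arrays, and the spleen arrays lay among the effector arrays or just above them. Mvk was 2.03-fold lower in LG_eTconv (log2 difference −1.02, SE 0.23, adjusted p = 0.0183) and 1.98-fold lower in LG_eTreg (−0.98, SE 0.23, adjusted p = 0.02507). A second Mvk probe set differed by 0.18 and 0.11 in the same comparisons and was not called, so the difference rests on 1 of the gene's 2 probe sets, and as the mean of both it was −0.42 and −0.44, not called. The call in LG_eTconv was lost without LG_naive 1 or 3, or LG_eTconv 2 or 3 (adjusted p up to 0.06207), and that in LG_eTreg without LG_naive 1 or 3, or LG_eTreg 1 or 2 (up to 0.0825), and without the 3 arrays that stand apart (0.06509).

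Idi1, the isomerase that makes the building block for farnesyl diphosphate, read 5.24, 5.80 and 5.44 in LG_naive, 4.78, 4.13 and 4.70 in LG_eTconv, 5.55, 6.12 and 5.88 in LG_eTreg, 6.50 in Spl_CD4 and 5.55 in Spl_CD8. The LG_eTconv arrays were the lowest, apart from every other array, while LG_naive and LG_eTreg overlapped. Idi1 was 1.94-fold lower in LG_eTconv than in LG_naive (−0.96, SE 0.23, adjusted p = 0.02735) and 2.48-fold higher in LG_eTreg than in LG_eTconv (1.31, SE 0.23, adjusted p = 0.01226). The second Idi1 probe set gave −0.81 and 1.55, of which the latter was called (adjusted p = 0.04684). The call against LG_naive was lost without LG_naive 2 or 3, or LG_eTconv 2 or 3 (adjusted p up to 0.08813), without the 3 arrays that stand apart (−1.21, 0.06064) and as the mean of both probe sets (0.07387). The call between the effector groups was kept whichever single array was left out, and was lost when the 3 arrays that stand apart were left out together (1.42, adjusted p = 0.07487).

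The other mevalonate genes were not called. Hmgcs1, which makes HMG-CoA, read 0.56, 3.41 and 2.38 in LG_naive, the widest spread of any member, with LG_naive 1 below background; it read 0.60, 1.42 and 1.13 in LG_eTconv and 1.92, 1.95 and 1.81 in LG_eTreg. Without LG_naive 1, Hmgcs1 was called lower in LG_eTconv (−1.85, adjusted p = 0.009978), and likewise without the 3 arrays that stand apart (−1.62, adjusted p = 0.04226), against −1.07 (adjusted p = 0.3406) with all arrays. Mvd, the decarboxylase, read 3.63 to 3.95 in LG_naive and 3.26 to 3.32 in LG_eTconv, with no overlap (adjusted p = 0.3086). Without LG_eTreg 1, it was called lower than in LG_naive both in LG_eTconv (adjusted p = 0.03682) and in LG_eTreg (−0.53, adjusted p = 0.04406). Fdps, which joins the isoprenoid units, read at most 1.34 in LG_eTconv, below every LG_naive array, of which the highest read 1.82; in LG_eTconv 1 of 3 arrays was above background. Its difference of −0.51 was called without LG_eTreg 3 (adjusted p = 0.04527).

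**Figure D1:**
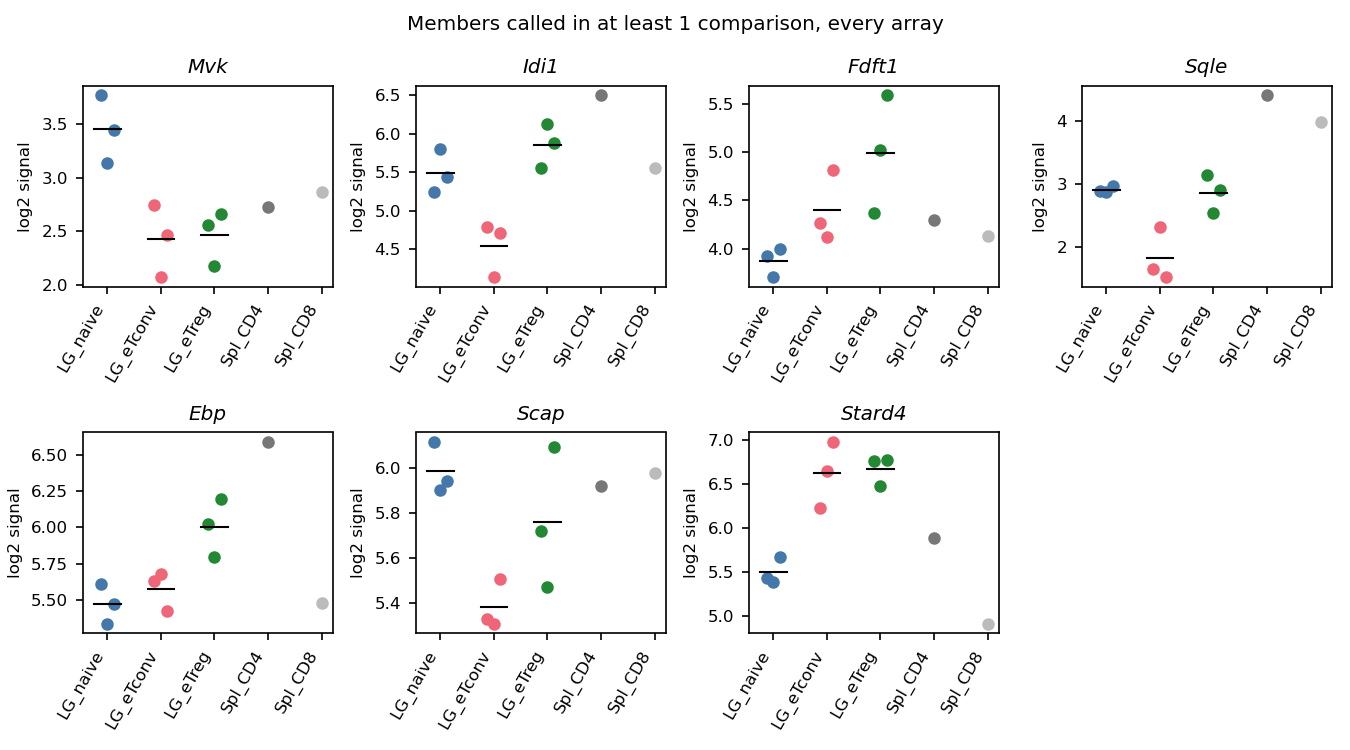
Log2 signal (vertical axis, its own range in each panel) of the 7 genes called in at least 1 comparison, by group; each point is 1 array and the black line is the mean of 3 arrays. For Idi1 and Sqle the 3 LG_eTconv points lie below all the other arrays, for Mvk all 6 effector points lie below LG_naive, and for Stard4 all 6 lie above it.

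In the sterol arm, which runs from farnesyl diphosphate to cholesterol, all 11 listed genes were measured. Of these, 1 was called lower in LG_eTconv than in LG_naive (Sqle), and 2 were called higher in LG_eTreg than in LG_naive (Fdft1 and Ebp). Over all members, 4 of 28 were called in LG_eTreg against LG_naive, 14.3%, beside 11.7% of all genes; 3 were higher and 1 lower, beside 6.2% and 5.47%. Sqle, squalene epoxidase, a rate-limiting step, read 2.88, 2.87 and 2.97 in LG_naive, 1.66, 2.32 and 1.52 in LG_eTconv, 3.14, 2.54 and 2.91 in LG_eTreg, 4.41 in Spl_CD4 and 3.97 in Spl_CD8. LG_eTconv was the lowest group with no overlap, and both spleen arrays were above every gland array. Sqle was 2.11-fold lower in LG_eTconv than in LG_naive (−1.08, SE 0.22, adjusted p = 0.01371), a call lost without LG_naive 3 or LG_eTconv 1 (adjusted p up to 0.05414). It was 2.04-fold higher in LG_eTreg than in LG_eTconv (1.03, SE 0.22, adjusted p = 0.03265), a call lost without any LG_naive array, LG_eTconv 1 or 3, or LG_eTreg 1 or 3 (up to 0.1164). Without the 3 arrays that stand apart neither Sqle difference was called (−1.004, adjusted p = 0.1291, and 0.92, adjusted p = 0.2516). Sqle was near background in LG_eTconv, where arrays 1 and 3 had limits of 1.57 and 1.20. With values below background set to the highest limit, limma no longer called it between the effector groups (0.96, adjusted p = 0.06966). Its call against LG_naive was kept there.

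Fdft1, squalene synthase, commits farnesyl diphosphate to sterols. It read 3.92, 3.70 and 3.99 in LG_naive, 4.27, 4.12 and 4.81 in LG_eTconv, 4.37, 5.02 and 5.59 in LG_eTreg, 4.30 in Spl_CD4 and 4.13 in Spl_CD8. All 6 effector arrays were above LG_naive, and LG_eTreg 3, an array that stands apart by its 18S control, was the highest. Fdft1 was 2.17-fold higher in LG_eTreg than in LG_naive (1.12, SE 0.30, adjusted p = 0.04772). Its difference in LG_eTconv was 0.53 (adjusted p = 0.3415).

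Ebp, a sterol isomerase, read 5.61, 5.33 and 5.47 in LG_naive, 5.63, 5.68 and 5.42 in LG_eTconv, 6.02, 5.79 and 6.20 in LG_eTreg, 6.59 in Spl_CD4 and 5.48 in Spl_CD8. LG_eTreg was above both other gland groups with no overlap, and Spl_CD4 was higher still. The difference between LG_eTreg and LG_naive was 0.53 (SE 0.14, 1.45-fold, adjusted p = 0.0413), and that between LG_eTreg and LG_eTconv was 0.43 (adjusted p = 0.1453). The Fdft1 call was lost without any LG_naive array, LG_eTconv 1 or 2, or LG_eTreg 2 or 3 (adjusted p up to 0.1366). The Ebp call was lost without LG_naive 2 or 3, any LG_eTconv array, or LG_eTreg 1 or 3 (up to 0.1303). Without the 3 arrays that stand apart, adjusted p was 0.202 for Fdft1 and 0.1257 for Ebp.

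Of the other 8 sterol genes, none was called in any comparison. Cyp51, the lanosterol demethylase, read 4.69, 5.13 and 5.22 in LG_naive, 4.67, 4.65 and 5.08 in LG_eTconv, and 5.37, 5.60 and 5.22 in LG_eTreg, where it was above LG_eTconv with no overlap (0.60, adjusted p = 0.134). Sc5d, a late desaturase, read 4.55, 3.45 and 3.75 in LG_naive, 2.55, 3.29 and 3.41 in LG_eTconv, and 3.64, 4.89 and 4.34 in LG_eTreg, again with LG_eTreg above LG_eTconv (1.21, adjusted p = 0.151) and LG_eTconv below LG_naive (−0.83, adjusted p = 0.2405), both with no overlap. Msmo1, a sterol oxidase, spanned 2.39 to 3.08 in LG_eTconv and 2.47 to 3.94 in LG_eTreg. Its difference of 0.65 between them (adjusted p = 0.444) was called as the mean of its 2 probe sets (0.84, adjusted p = 0.03767) and without LG_eTreg 1 (1.08, adjusted p = 0.03372). As the mean of both probe sets, Msmo1 was also called lower in LG_eTconv than in LG_naive (−0.79, adjusted p = 0.02492). Dhcr7, which completes cholesterol, spanned 6.54 to 6.80 in LG_naive, 6.54 to 6.81 in LG_eTconv and 6.70 to 7.25 in LG_eTreg. Tm7sf2, Nsdhl and Hsd17b7 overlapped between the groups in all 3 comparisons, and Lss was at or near background in the gland.

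**Figure D2:**
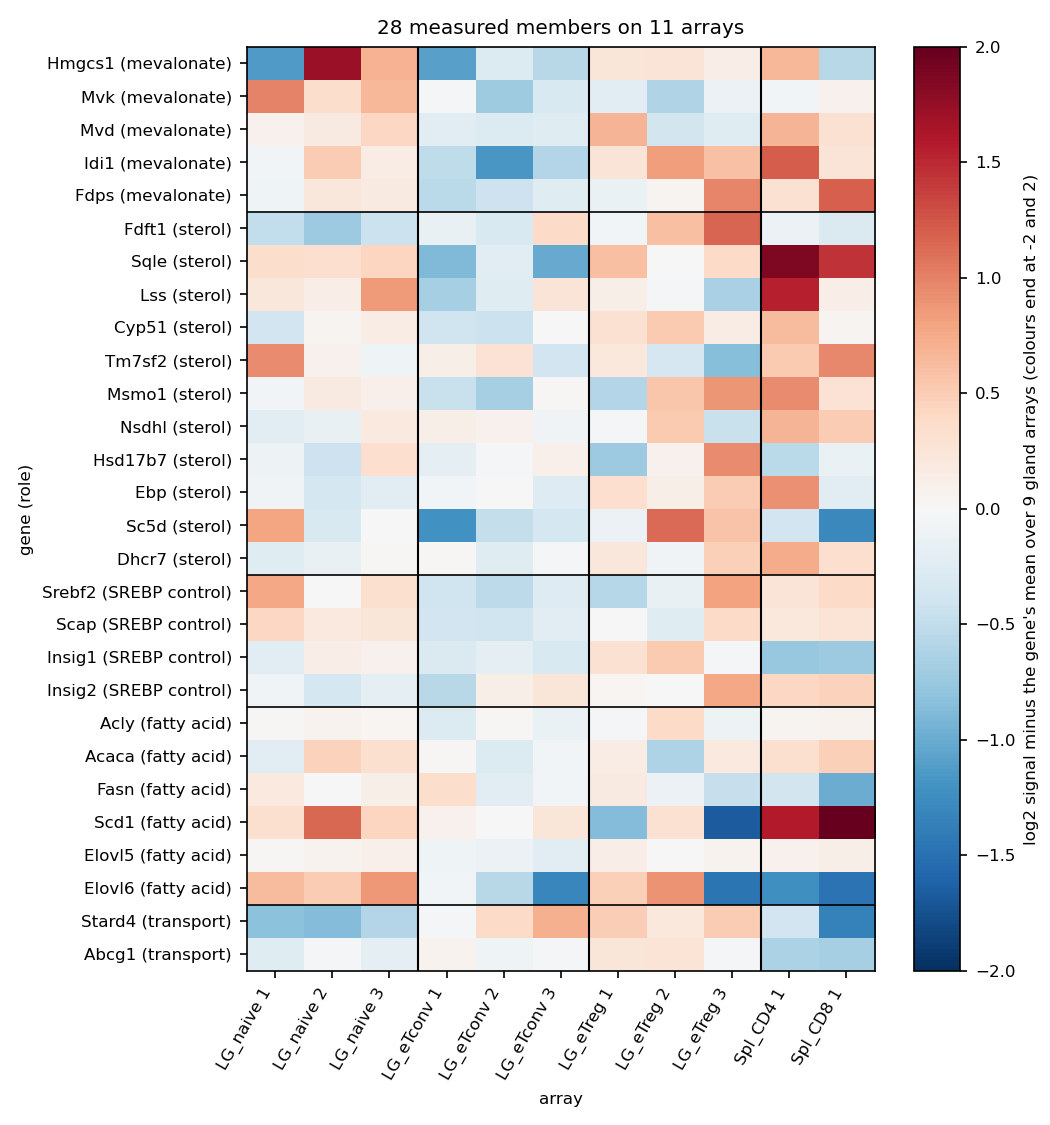
Log2 signal of each of the 28 genes (rows, grouped by role) on each of the 11 arrays (columns) minus the gene's mean over the 9 gland arrays; red is above that mean and blue below, and colours end at −2 and 2, which Scd1 on Spl_CD8 exceeds. The LG_eTconv columns are mostly blue in the mevalonate rows, Sqle is red on both spleen arrays, and Hmgcs1, Scd1 and Elovl6 vary within groups.

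The mevalonate and sterol genes were also described array by array, as the median over 16 genes of the deviation from the gene's gland mean. The LG_eTconv arrays had medians of −0.31, −0.28 and −0.25. The LG_naive arrays had −0.07, 0.11 and 0.16, and the LG_eTreg arrays 0.17, 0.09 and 0.42. The 3 LG_eTconv arrays were the lowest, and the highest gland array was LG_eTreg 3, one of those that stand apart. The same median over all genes lay between −0.05 and 0.04 on every gland array.

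Among the regulators, Scap, the escort that carries SREBP to the Golgi for cleavage, read 6.12, 5.90 and 5.94 in LG_naive, 5.33, 5.30 and 5.50 in LG_eTconv, 5.72, 5.47 and 6.09 in LG_eTreg, 5.92 in Spl_CD4 and 5.98 in Spl_CD8. LG_eTconv lay below LG_naive and both spleen arrays, and LG_eTreg spanned the gap between them. Scap was 1.53-fold lower in LG_eTconv than in LG_naive (−0.61, SE 0.16, adjusted p = 0.04133). This call was lost without any LG_naive or LG_eTconv array or LG_eTreg 1 (adjusted p up to 0.1258), and without the 3 arrays that stand apart (0.08983).

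Srebf2, which encodes SREBP2 itself, read 6.42, 5.67 and 5.98 in LG_naive, 5.25, 5.14 and 5.39 in LG_eTconv, and 5.09, 5.51 and 6.46 in LG_eTreg. LG_eTconv was below LG_naive with no overlap, without a call (−0.76, adjusted p = 0.2001). The dimmer Srebf2 probe set was called lower there when every probe set was tested (−1.06, adjusted p = 0.006696). Insig1, which holds SCAP in the endoplasmic reticulum and is itself an SREBP target, read 7.39 to 7.74 in LG_naive, 7.30 to 7.43 in LG_eTconv and 7.57 to 8.14 in LG_eTreg. LG_eTreg was above LG_eTconv with no overlap (0.53, adjusted p = 0.1232), and was called without LG_eTreg 3 (0.68, adjusted p = 0.04541). Insig2 read 4.85 to 5.13 in LG_naive, 4.64 to 5.43 in LG_eTconv and 5.20 to 5.97 in LG_eTreg, with no call.

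None of the 6 measured fatty acid synthesis genes was called by limma in any comparison. At an unadjusted p under 0.05, 1 was lower in LG_eTconv than in LG_naive, 1 was lower in LG_eTreg than in LG_naive, and 1 was higher in LG_eTreg than in LG_eTconv. The same counts over all 17097 genes were 2375, 2000 and 1507. Acly, which makes cytosolic acetyl-CoA, stayed between 7.58 and 8.23 on the gland arrays. Acaca, the carboxylase that makes malonyl-CoA, spanned 4.64 to 5.71, and Fasn, fatty acid synthase, 4.73 to 5.54. For Acly, the 95% interval of the difference between LG_eTconv and LG_naive ran from −0.50 to 0.16. Elovl5, which lengthens polyunsaturated fatty acids, read 9.60 to 9.67 in LG_naive, 9.37 to 9.48 in LG_eTconv and 9.58 to 9.72 in LG_eTreg: a small, separated difference of −0.21 in LG_eTconv (adjusted p = 0.1957).

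Scd1 and Elovl6, which desaturate and lengthen saturated fatty acids, had the widest spread within groups of these 6 genes. Scd1 read 6.49, 7.32 and 6.59 in LG_naive, 6.25, 6.18 and 6.40 in LG_eTconv, and 5.29, 6.47 and 4.51 in LG_eTreg, against 7.75 in Spl_CD4 and 8.70 in Spl_CD8. All 9 gland arrays were below both spleen arrays, and LG_eTreg was below LG_naive with no overlap (−1.37, SE 0.44, adjusted p = 0.09358), called without LG_eTreg 2 (−1.90, adjusted p = 0.008534). Elovl6 read 6.23, 6.10 and 6.46 in LG_naive, 5.54, 5.04 and 4.30 in LG_eTconv, 6.08, 6.50 and 4.14 in LG_eTreg, 4.37 in Spl_CD4 and 4.13 in Spl_CD8. LG_eTreg 3 was the lowest gland array for both genes. The Elovl6 difference between LG_eTconv and LG_naive was −1.30 (SE 0.57, adjusted p = 0.2029), and it was called without LG_eTreg 3 (adjusted p = 0.02673), without the 3 arrays that stand apart (−1.61, 0.02908), with only the 2 groups in the fit (0.04186) and as the mean of its 3 probe sets (−1.04, 0.0231). A dimmer Elovl6 probe set was called higher in LG_eTreg than in LG_eTconv when every probe set was tested (1.43, adjusted p = 0.04041).

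For transport, Stard4 read 5.44, 5.39 and 5.67 in LG_naive, 6.24, 6.65 and 6.98 in LG_eTconv, 6.76, 6.48 and 6.77 in LG_eTreg, 5.88 in Spl_CD4 and 4.91 in Spl_CD8. All 6 effector arrays were above every LG_naive and spleen array. Stard4 was 2.17-fold higher in LG_eTconv (1.12, SE 0.19, adjusted p = 0.005169) and 2.25-fold higher in LG_eTreg (1.17, SE 0.19, adjusted p = 0.004849) than in LG_naive, and the effector groups differed by 0.05 (95% interval −0.39 to 0.49). The calls against LG_naive held whichever single array was left out, with adjusted p of at most 0.02317 and 0.02169. Its other probe sets gave 0.94 and 1.22 in LG_eTconv and 1.43 and 0.45 in LG_eTreg, all positive and none called. Abcg1, an exporter of cholesterol and an LXR target, read 8.24 to 8.44 in LG_naive, 8.39 to 8.54 in LG_eTconv and 8.44 to 8.74 in LG_eTreg, with no call (0.13 in LG_eTconv, adjusted p = 0.5567, and 0.31 in LG_eTreg, adjusted p = 0.1484). Its dimmer probe set was called lower in LG_eTconv than in LG_naive when every probe set was tested (−0.75, adjusted p = 0.02292), and the mean of both was −0.31 there, so the direction depends on the probe set.

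**Figure D3:**
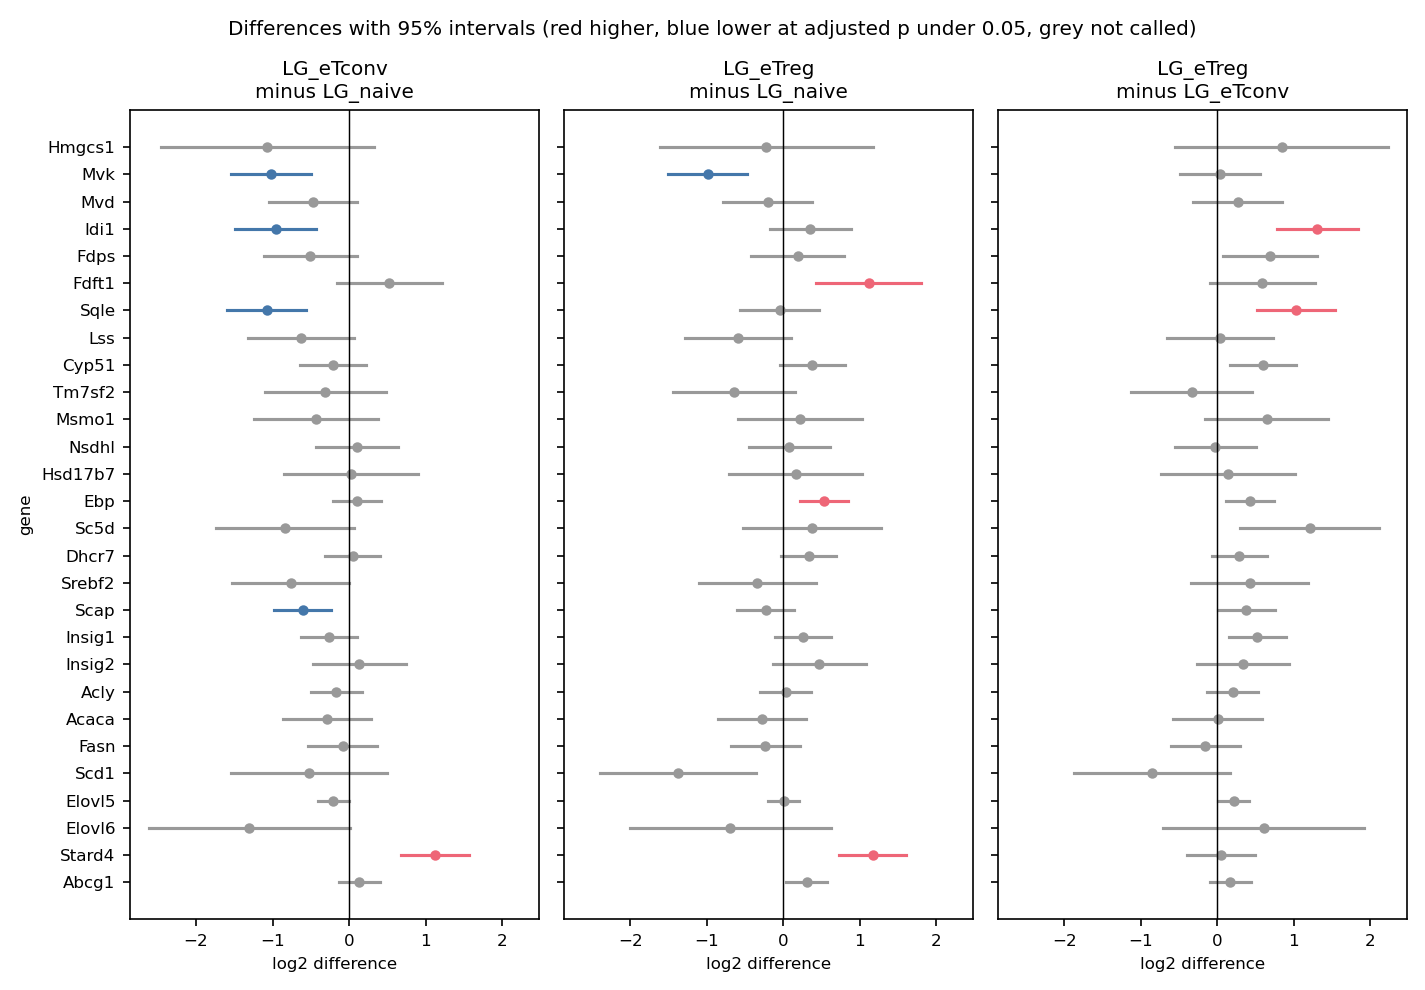
Log2 difference between group means (horizontal axis) with its 95% interval for each of the 28 genes in 3 comparisons; red is called higher, blue called lower, grey not called at an adjusted p under 0.05. In LG_eTconv minus LG_naive 20 of 28 points lie left of 0, and in LG_eTreg minus LG_eTconv 24 of 28 lie right of 0.

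Counted over the 28 genes, LG_eTconv was below LG_naive in 20, 71.4%, beside 54.7% of all genes. The median difference was −0.30, while the median over all genes was −0.03. The arrays did not overlap for 13 members, 46.4%, beside 31.1% of all genes. They did not overlap for 11 members lower in LG_eTconv, 39.3% of them, beside 17.2% of all genes, and for 2 higher, 7.14%, beside 13.8%. LG_eTreg was above LG_naive in 16, 57.1%, beside 46.7% of all genes, with a member median of 0.06 against −0.02 over all genes. That median turned to −0.03 (14 of 28 above) without LG_eTreg 3 and to −0.02 without the 3 arrays that stand apart (13 of 28) or with the mean of probe sets (14 of 28). Between these groups 6 genes were higher and 3 lower without overlap (21.4% and 10.7%, beside 13.3% and 13.9% of all genes, and 27.1% in either direction). LG_eTconv was the lowest of the 3 gland groups for 17 of the 28 genes, 60.7%, against 36.5% of all genes, and LG_eTreg was the lowest for 3, 10.7%, against 31.3%.

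LG_eTreg minus LG_eTconv tests the difference between the effector groups directly, and 2 of 28 genes were called in it, Idi1 and Sqle, both higher in LG_eTreg, which is 7.14%, beside 5.7% of all genes called in either direction, 2.94% higher and 2.76% lower. None was called lower by limma, and none was lower at an unadjusted p under 0.05, where 9 were higher. Of all 17097 genes, 1507 were higher and 1263 lower at that unadjusted p. LG_eTreg was above LG_eTconv in 24 of the 28, 85.7%, against 52.5% of all genes, with a median of 0.31 against 0.01. The arrays did not overlap for 9 genes, all higher in LG_eTreg (32.1%, beside 11.8% of all genes higher, 9.63% lower and 21.5% in either direction): Hmgcs1, Idi1, Fdps, Sqle, Cyp51, Ebp, Sc5d, Insig1 and Elovl5. Without the 3 arrays that stand apart, LG_eTreg was above LG_eTconv in 22 of 28 and the median was 0.23. These genes share a pathway and arrays, so such counts are not independent observations.

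Markers of some other cells moved with the groups. Over all genes, 7.02% were called lower in LG_eTconv than in LG_naive, and 5.47% in LG_eTreg than in LG_naive. The 14 macrophage markers summed to 10.03 to 10.40 in LG_naive, 9.45 to 9.51 in LG_eTconv and 9.54 to 9.79 in LG_eTreg (log2 of the summed linear signal), with 8 of 14 called lower in LG_eTconv and 6 in LG_eTreg than in LG_naive; Tyrobp averaged 8.07, 4.49 and 4.31, and Csf1r and Itgam were at or below background on every gland array. The 14 gland epithelium markers summed to 7.90 to 9.10, 6.33 to 6.54 and 7.17 to 7.79, with 5 called lower in LG_eTconv and 4 in LG_eTreg than in LG_naive. Epcam, which averaged 3.32 in LG_eTconv and 6.37 in LG_eTreg, and Krt18 (3.47 and 4.89) were called higher in LG_eTreg than in LG_eTconv, the comparison in which Idi1 and Sqle were called, while the other 12 were not called and the list split into 7 higher and 7 lower (median 0.01); Krt19, Cldn3 and Elf3 were at or below background on every gland array. Of the 7 measured adipocyte markers, Adipoq, Lep, Pck1 and Plin4 were at or below background on every gland array, and Lpl averaged 4.17, 1.94 and 1.01. Retn (1.81, 1.71 and 1.60) and Fabp4 (0.69, 0.22 and 0.13) were not called. In each comparison with LG_naive 1 of the 7 was called, lower. That is 14.3%, beside 13.5% of all genes for LG_eTconv and 11.7% for LG_eTreg, a share near the background. Dendritic cell, B cell, and CD8 T and NK cell lists had 10, 7 and 6 measured genes, of which 7, 1 and 2 were called lower in LG_eTconv than in LG_naive, and 7, 6 and 1 in LG_eTreg. In either direction, 70%, 14.3% and 50% were called in LG_eTconv, beside 13.5% of all genes, so the B cell share was near the background. In LG_eTreg the shares were 80%, 85.7% and 16.7%, beside 11.7% of all genes. Cd8a was called higher in LG_eTconv than in LG_naive (1.56, adjusted p = 0.001609) and lower in LG_eTreg than in LG_eTconv (−1.31, adjusted p = 0.008576), and 1 dendritic cell gene was called higher in LG_eTreg than in LG_naive. In LG_eTreg minus LG_eTconv all 7 B cell genes were negative, 6 without overlap and 2 called lower. Over all genes, 47.5% were negative in that comparison, 9.63% were lower without overlap, 2.76% were called lower and 2.94% higher. The part of these other cells in the differences above was not tested, and in such bulk samples fewer cells of a type and less RNA per cell cannot be told apart.

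Against the spleen there is no test, since Spl_CD4 and Spl_CD8 have 1 array each, and the tissue, the sort and the array go together. LG_naive differed from Spl_CD4 by at least 1, with all 3 arrays on 1 side, for 5 of 28 genes, 17.9%, beside 9.24% of all genes, 4.57% lower and 4.67% higher. Idi1 (−1.01), Sqle (−1.498), Lss (−1.16, above background on 1 of 3 LG_naive arrays) and Ebp (−1.12) were lower in LG_naive, and Elovl6 (1.89) was higher. Of the 16 mevalonate and sterol genes, LG_naive was below Spl_CD4 for 13, 81.2%, against 49.8% of all genes. LG_eTconv was below it for 14, 87.5%, against 52.3%, and LG_eTreg for 13, 81.2%, against 50.6%. For 8 of the 16, 50%, against 14.2% of all genes, all 9 gland arrays lay below Spl_CD4: Idi1, Sqle, Lss, Cyp51, Msmo1, Nsdhl, Ebp and Dhcr7. In the other direction, Insig1 and Abcg1 were above Spl_CD4 on all 9 gland arrays.

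Spl_CD8 was below Spl_CD4 for 12 of the 16, 75%, against 50.2% of all genes. Differences passed 1 in size at Hmgcs1 (−1.21), Ebp (−1.11) and Lss, which was not above background on Spl_CD8. Fdps was 0.90 higher in Spl_CD8 than in Spl_CD4. Over all genes, 8.25% differed between these arrays by at least 1 in size. Scd1 was 0.95 higher in Spl_CD8 than in Spl_CD4, and Stard4 was 0.97 lower. The summed B cell markers were 9.36 in Spl_CD4 and 10.11 in Spl_CD8, above the 6.43 to 8.62 of the gland arrays, and Hba-a1, a red cell gene, was 8.82 and 8.66 in the spleen against at most 5.13 in the gland. Their part in these differences was not tested.

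**Figure D4:**
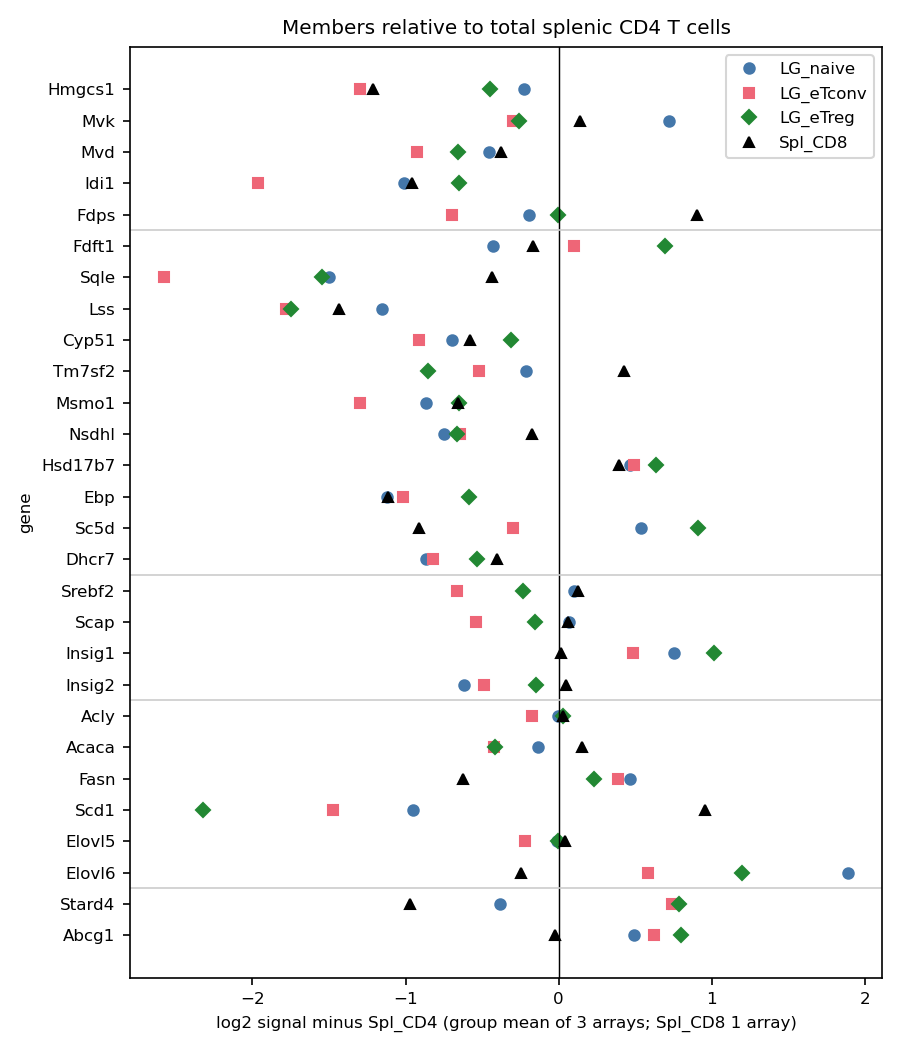
Log2 signal minus that of Spl_CD4 (horizontal axis) for the 28 genes, as the mean of 3 arrays for the gland groups and 1 array for Spl_CD8; grey lines divide the roles. Most mevalonate and sterol genes lie left of 0 in the gland groups, with Sqle at −2.58 in LG_eTconv, and Scd1 lies left of 0 in the gland groups and right of it in Spl_CD8.

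Genes next to the pathway were read from 6 further lists. In the isoprenoid branch, 2 of 13 measured genes were lower in LG_eTconv than in LG_naive, 15.4%, beside 13.5% of all genes called there, a share near the background. Fntb, the farnesyltransferase subunit that anchors Ras, averaged 5.05 in LG_naive, 3.46 in LG_eTconv and 3.13 in LG_eTreg (−1.59, adjusted p = 0.001405, and −1.92, adjusted p = 0.0005828). Rabggta, which prenylates Rab proteins, averaged 5.92 in LG_naive, 4.68 in LG_eTconv and 5.997 in LG_eTreg; it was lower in LG_eTconv than in LG_naive (−1.24, adjusted p = 0.03374) and higher in LG_eTreg than in LG_eTconv (1.32, adjusted p = 0.04952), the same order of group means as Idi1. Of 11 genes of SREBP processing and sterol sensing, limma called none in any comparison. At an unadjusted p under 0.05, 2 were higher in LG_eTreg than in LG_eTconv, beside 1507 of all 17097 genes, and 0 differed against LG_naive. Against LG_naive, 1908 of all genes were higher and 2375 lower in LG_eTconv, and 1932 and 2000 in LG_eTreg, at that unadjusted p.

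Among 6 measured LXR genes and targets, 1 was higher and 2 lower in LG_eTconv than in LG_naive, and 2 higher and 1 lower in LG_eTreg; 50% of the list was called in each, beside 13.5% and 11.7% of all genes. Smpdl3a, an LXR-induced phosphodiesterase, averaged 7.42 in LG_naive, 8.56 in LG_eTconv and 8.11 in LG_eTreg, and was called in all 3 comparisons. Mylip, the ligase that removes the LDL receptor, fell in both (−1.03, adjusted p = 0.00142, and −0.81, adjusted p = 0.005996). Rxrb was lower in LG_eTconv (−0.72, adjusted p = 0.04371) and Rxra was higher in LG_eTreg (0.72, adjusted p = 0.01866).

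Of 15 measured genes of cholesterol uptake, storage and oxysterols, 1 was higher and 6 lower in LG_eTconv than in LG_naive, and 1 higher and 3 lower in LG_eTreg. That is 46.7% and 26.7% of the list, beside 13.5% and 11.7% of all genes. Gpr183, the receptor that guides cells toward oxysterols, averaged 7.82, 4.48 and 4.68 in LG_naive, LG_eTconv and LG_eTreg, 10.2-fold lower in LG_eTconv (adjusted p = 0.00045) and 8.81-fold lower in LG_eTreg (adjusted p = 0.0007737). The sterol transfer genes Gramd1a and Gramd1b moved oppositely: Gramd1a averaged 7.77, 6.32 and 6.86, and Gramd1b 6.04, 7.49 and 6.70, each called in both comparisons with LG_naive. Cyp7b1, an oxysterol hydroxylase, was above background on all 3 LG_naive arrays and on no LG_eTconv array, at least 1.88-fold lower (adjusted p = 0.0297). Such a bound sets the LG_naive mean against the mean background limit of the other group's arrays. Npc1, the lysosomal cholesterol exporter, was lower in both LG_eTconv (−1.22, adjusted p = 0.007767) and LG_eTreg (−0.99, adjusted p = 0.02534).

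The largest difference in any of these lists was that of Acss2, which turns acetate into acetyl-CoA. It read 7.19, 7.14 and 6.77 in LG_naive, 3.14, 2.85 and 3.23 in LG_eTconv, 4.29, 2.89 and 3.31 in LG_eTreg, 7.57 in Spl_CD4 and 7.14 in Spl_CD8. All effector arrays were far below LG_naive and spleen, 15.6-fold in LG_eTconv (adjusted p = 8.391e-05) and 11.6-fold in LG_eTreg (adjusted p = 0.0001849). Acly, another source of cytosolic acetyl-CoA, was not called. Of the 16 measured genes of that list, on elongation, desaturation and activation, 4 were higher and 4 lower in LG_eTconv, and 1 higher and 3 lower in LG_eTreg, than in LG_naive. That is 50% and 25% of the list, beside 13.5% and 11.7% of all genes. Elovl7, an elongase, was above background on all 3 LG_naive arrays and no effector array, at least 2.73-fold lower in LG_eTconv (adjusted p = 0.0001345) and 2.96-fold in LG_eTreg (adjusted p = 0.0002063). Fads2, a desaturase, fell in both (−0.73, adjusted p = 0.00776, and −0.79, adjusted p = 0.006358), Elovl1 was higher in LG_eTconv (1.02, adjusted p = 0.01838), Fabp5, a fatty acid carrier, was higher in LG_eTreg (0.60, adjusted p = 0.02866), and Hacd2 was lower in LG_eTreg than in LG_eTconv (−0.63, adjusted p = 0.03097).

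In fatty acid oxidation, which breaks down what these enzymes build, 2 of 14 measured genes were higher in LG_eTconv than in LG_naive, 14.3%, beside 13.5% of all genes called there, a share near the background. Decr1, needed to burn unsaturated fatty acids, read 5.45, 4.95 and 4.47 in LG_naive, 6.59, 6.91 and 7.26 in LG_eTconv, and 4.67, 5.12 and 5.86 in LG_eTreg. LG_eTconv was above both other groups with no overlap, 3.90-fold above LG_naive (1.96, SE 0.35, adjusted p = 0.006146), and LG_eTreg was 3.25-fold below LG_eTconv (adjusted p = 0.02499). Eci2 was also highest in LG_eTconv, 0.49 above LG_naive (adjusted p = 0.02708), and LG_eTreg was the lowest of the 3 (LG_eTreg minus LG_eTconv −0.65, adjusted p = 0.01346). Acadm, a dehydrogenase of medium-chain fatty acids, was lower in LG_eTreg than in LG_naive (−0.82, adjusted p = 0.04483).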

How the data were processed

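RNA from sorted T cells was amplified, biotin-labelled and hybridised to 11 perfect-match probe set arrays; per the labels' protocols all samples but 1 had a RIN above 9.1 (7.8 for that one, which no group label names). Per the submitters' processing notes, Partek and RMA were used to turn probe brightness into the log2 values the authors deposited, 1 per probe set and array, with no versions named; base 2 is inferred from their range. The series' 28898 probe sets with exactly 1 symbol gave 17097 genes, each by its brightest probe set over the gland arrays.

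One mean per group was fitted over the 9 gland arrays with limma 3.58.1 in R 4.3.3 (moderated test, 6 residual degrees of freedom before moderation). The code of the fit was tried on simulated data with independent normal noise. That setting had no arrays that stand apart, so it does not speak to their effect here. Spleen arrays were described only. Precision is limited by how few arrays there are, and alternatives are given in the closing section. Text names all measured members, up to 4 called genes per pathway list and comparison by size of difference, and, per marker list, from the 3 brightest genes plus Foxp3, Cd4 and markers at or below background. The members, the lists and these rules were chosen with earlier results of these data known.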

Additional observations from a re-analysis of the deposited data

How the results depend on the processing

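In the 20 alternatives tried on the gland arrays, no called difference of the 28 members changed sign. In some the difference stayed as it was, so its sign could not change. These were a filter on dim genes, testing all probe sets, another variance prior and the replicate block. Fitting only the 2 groups or all 11 arrays, or leaving out an array of the group not compared, also kept it. With all 11 arrays the counts of calls equalled the main ones. The 20 are thus not all separate checks. Genes of the pathway and marker lists were not rerun. The counts over all genes stayed within 1.5 times of the main ones. With the replicate number as a block, LG_eTreg minus LG_eTconv had 1 member called in place of 2 (Sqle lost, 0.08091), LG_eTreg minus LG_naive had 3 in place of 4 (Ebp lost, 0.07188) and LG_eTconv minus LG_naive had 4 in place of 5 (Idi1 lost, 0.05943). The labels do not say whether the numbers pair the samples. Same-numbered arrays had deviations that correlated between −0.10 and 0.28 over genes, other arrays of different groups between −0.23 and 0.19. Between the effector groups, same-numbered arrays correlated at 0.28, 0.08 and 0.17, and differently numbered ones between −0.23 and 0.02. These values do not settle whether the samples were paired. Leaving out each gland array in turn gave 1 to 7 members in LG_eTconv minus LG_naive (1 without LG_naive 3, 7 without LG_eTreg 3), 1 to 3 in LG_eTreg minus LG_naive (1 without LG_naive 3) and 1 to 2 in LG_eTreg minus LG_eTconv, and 1770 to 2414, 1512 to 1845 and 683 to 969 genes. For LG_eTreg minus LG_naive, 2 members were called with the mean of a gene's probe sets, 2 with all probe sets tested and 2 with only the 2 groups in the fit. With values below background set to the highest limit, a setting chosen after seeing the data, 1 was called there and 1 in LG_eTreg minus LG_eTconv, where 1 was called with only the 2 groups in the fit. Leaving out LG_naive 1, LG_eTconv 1 and LG_eTreg 3 together left 1 call, Stard4, in LG_eTreg minus LG_naive and 0 by limma in LG_eTreg minus LG_eTconv, where 6 members had an unadjusted p under 0.05. Stard4 was called against LG_naive in all 20 alternatives for LG_eTconv and in 19 of 20 for LG_eTreg (0.05142 with the mean of probe sets). Over the alternatives, counted after seeing the data, LG_eTconv was below LG_naive in 19 to 22 members LG_eTreg above LG_eTconv in 20 to 24, and LG_eTreg above LG_naive in 13 to 17, where the median ran from −0.03 to 0.12 and so changed direction. A threshold of 0.58 in place of 1 gave 13 members that differed between LG_naive and Spl_CD4. Lss, Hmgcs1 and Fdps lie near background, which limits what can be said of them. The same holds for Sqle in LG_eTconv and for Fads2 in both effector groups, where it averaged 1.73 (LG_eTconv) and 1.68 (LG_eTreg).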
